A study of Mus musculus with 8 samples.

Results

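The Hox genes stand in 4 clusters in the mouse genome, Hoxa on chromosome 6, Hoxb on chromosome 11, Hoxc on chromosome 15 and Hoxd on chromosome 2. Open chromatin at 38 of these genes was described by ATAC-seq peak positions in bone marrow-derived macrophages. Peaks of 8 libraries were merged where they shared at least 1 base, and a merged region was counted here when its nearest protein-coding gene body, within 100 kb, was 1 of the 38 genes. The choice used position only. It gave 15 of 87260 regions, and these were assigned to 11 of the 38 genes: Hoxa3, Hoxa9, Hoxb1, Hoxb3, Hoxb4, Hoxb6, Hoxb8, Hoxc8, Hoxc10, Hoxd8 and Hoxd13. No region was assigned to the other 27 Hox genes.

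Hox genes encode homeodomain transcription factors that give cells their position along the body axis in the embryo. Genes with the same number in different clusters (paralogues) descend from 1 ancestral gene, and their order along a cluster follows the order in which they act along the axis. In cells that do not use them, Hox clusters are a classic target of Polycomb repression, while Trithorax-type proteins such as the product of Kmt2a keep them active. In blood, Hoxa7, Hoxa9, Hoxa10 and Hoxb4 are known from stem and progenitor cells, where they work with the cofactors Meis1 and Pbx, and their activity falls as myeloid cells mature.

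The cells came from wild-type (WT) mice and from mice deficient in Nfat5 (KO), a transcription factor of the osmotic stress response that also acts in macrophages. Bone marrow was cultured for 7 days in medium with 25% of a supernatant that contains M-CSF, the growth factor of macrophages, made by L929 fibroblasts. The cells were then left untreated or given E. coli lipopolysaccharide (LPS), a bacterial cell wall component, at 0.3 ng/ml for 2 h. This gave 4 groups, WT untreated, WT LPS, KO untreated and KO LPS, of 2 libraries each. The sources used here do not give the Nfat5 allele, the cells in which it is lost or the age of the mice. The series text calls the 2 libraries of a group biological replicates without naming separate mice, so p-values measure only the spread between these libraries. A peak list holds positions only, so a region is either called or not called in a library, and its called width is the number of bases that the library's peaks cover in it. Read depth is unknown, and a region absent from a list may still be open below the calling threshold.

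Sequences of the start windows show where the called peaks lie against the genes. A start window is the stretch from 250 bases before to 50 bases after a transcription start in RefSeq (GRCm38.p6), and 22 of the 38 genes have at least 1 in that table. The 250 bases before the start are printed for 5 genes, 5′ to 3′ on the strand of the gene. Hoxa3 is shown because its start window was the only 1 of the 22 genes' windows that any library's peaks touched, and capitals mark the bases inside a region called in WT untreated library 1 alone (chr6:52213068-52213317, minus strand). In the other 4, capitals mark CG dinucleotides, since windows rich in them were mostly called at other genes. Hoxb4 (chr11:96318017-96318266, plus strand) and Hoxd8 (chr2:74704365-74704614, plus strand) have a recurrent region shortly downstream of the start. Hoxa9 (chr6:52227371-52227620, minus strand) is a blood progenitor gene, and Hoxa13 (chr6:52260881-52261130, minus strand) has the most CG dinucleotides of all these Hox windows.
Hoxa3: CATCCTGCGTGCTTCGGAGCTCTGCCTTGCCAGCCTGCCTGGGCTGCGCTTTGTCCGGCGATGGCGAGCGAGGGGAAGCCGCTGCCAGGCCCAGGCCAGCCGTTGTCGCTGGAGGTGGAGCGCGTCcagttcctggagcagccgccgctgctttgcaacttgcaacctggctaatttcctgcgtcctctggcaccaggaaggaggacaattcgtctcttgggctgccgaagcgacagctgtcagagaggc
Hoxb4: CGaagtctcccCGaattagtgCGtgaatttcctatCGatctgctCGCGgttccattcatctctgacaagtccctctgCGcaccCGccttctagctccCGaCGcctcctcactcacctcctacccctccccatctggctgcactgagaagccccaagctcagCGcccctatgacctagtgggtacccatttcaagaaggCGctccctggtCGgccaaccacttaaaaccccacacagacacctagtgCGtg
Hoxd8: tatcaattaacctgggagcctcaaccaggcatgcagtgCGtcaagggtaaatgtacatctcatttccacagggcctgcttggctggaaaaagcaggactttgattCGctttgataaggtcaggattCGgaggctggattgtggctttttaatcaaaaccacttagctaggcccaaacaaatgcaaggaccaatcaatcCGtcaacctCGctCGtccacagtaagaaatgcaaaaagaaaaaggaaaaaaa
Hoxa9: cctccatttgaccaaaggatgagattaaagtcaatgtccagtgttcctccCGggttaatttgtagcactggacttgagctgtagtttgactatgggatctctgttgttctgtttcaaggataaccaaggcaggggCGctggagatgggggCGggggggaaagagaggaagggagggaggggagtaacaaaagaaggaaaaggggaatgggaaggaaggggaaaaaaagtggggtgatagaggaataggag
Hoxa13: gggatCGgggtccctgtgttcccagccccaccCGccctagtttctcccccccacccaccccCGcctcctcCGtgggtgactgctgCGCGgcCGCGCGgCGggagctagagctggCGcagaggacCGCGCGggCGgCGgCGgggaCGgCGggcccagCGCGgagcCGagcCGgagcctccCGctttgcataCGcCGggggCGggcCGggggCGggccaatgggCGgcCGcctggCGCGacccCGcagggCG
The called part of the Hoxa3 stretch covers 126 bases at its distal end and stops 125 bases short of the start. The Hoxb4 stretch holds 14 CG dinucleotides and lies 283 bases from the nearest region, and the Hoxd8 stretch holds 6 and lies 611 bases from it. The Hoxa13 stretch holds 35 CG dinucleotides at 80% G or C and has no region within 38989 bases, while the Hoxa9 stretch holds 3 and lies 5479 bases from a region.

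Most Hox genes had no assigned region, while 75.7% of the 21887 protein-coding genes had one. Each region went to 1 gene only, so closely spaced genes such as these can collect regions from less sequence. The part of gene spacing in this contrast was not tested. Hoxa4 and Hoxd12, both without an assigned region, lay 0.199 kb and 1.79 kb from a region assigned to a neighbour. In a bulk library, a region open in fewer cells and a region less open in each cell cannot be told apart. The clusters, measured from the first to the last of the 38 gene bodies, spanned 98.5 kb (Hoxa, 10 genes), 173.9 kb (Hoxb, 10 genes), 115.7 kb (Hoxc, 9 genes) and 96.9 kb (Hoxd, 9 genes), 485 kb in all. They held 5, 4, 2 and 3 regions, and the fifteenth region lay outside, beyond Hoxb1. Across these spans a library's peaks covered 0% to 0.900% of Hoxa, 0.411% to 0.655% of Hoxb, 0% to 0.283% of Hoxc and 0.233% to 1.12% of Hoxd. No region lay in the longest stretch between neighbouring genes, the 74.7 kb from Hoxb13 to Hoxb9, nor in the longest ones of the other clusters (13.04 to 15.92 kb).

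**Figure D1:**
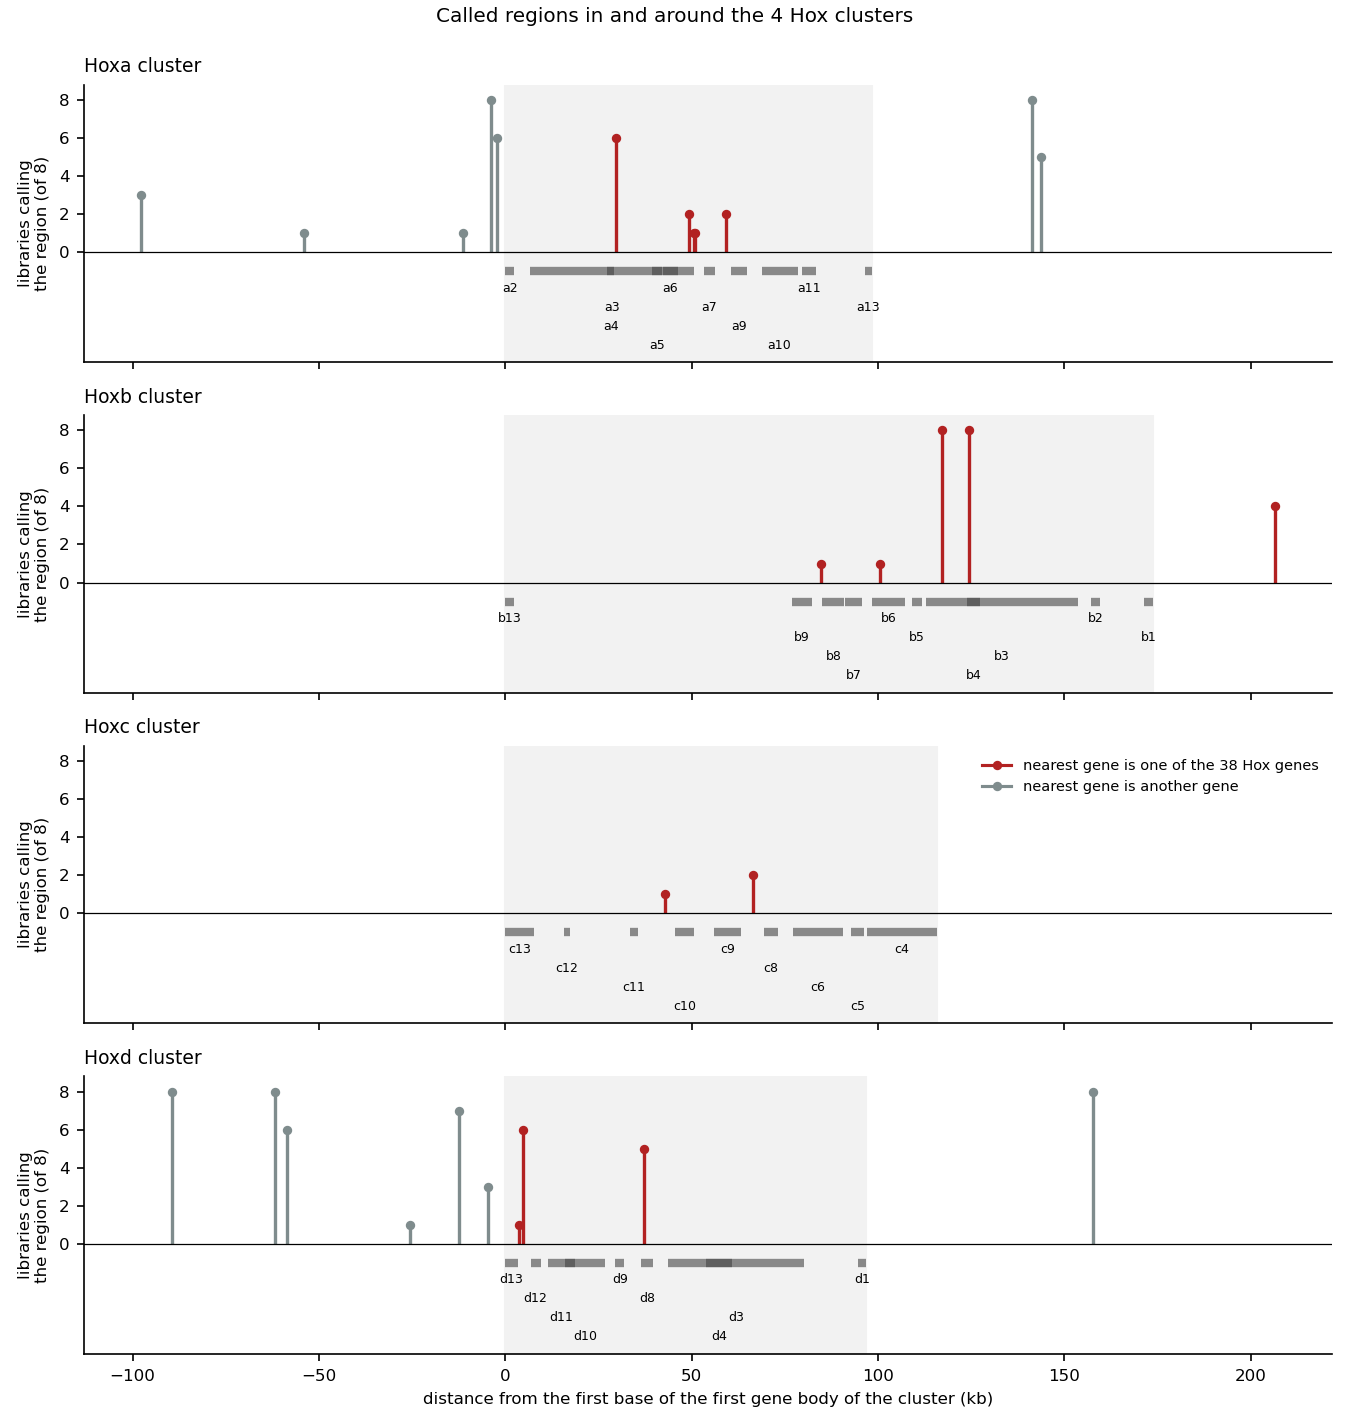
Called regions along each cluster, as distance in kb from the first base of the cluster's first gene body; the height is the number of libraries (of 8) that call the region, grey bars are gene bodies (a9 is Hoxa9), and the shaded span runs from the first to the last gene. Red regions have 1 of the 38 Hox genes as nearest gene: 2 in Hoxb reach all 8 libraries, and Hoxc has none above 2. The axis does not reach the far ends of the Hoxb and Hoxc flanks.

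The surroundings were not richer in regions, but their regions recurred more often. Flanks of the same length on both sides of each cluster (970 kb) held 23 regions, or 2.37 per 100 kb. The clusters held 14 regions, or 2.89 per 100 kb. The region assigned to Hoxb1 is 1 of the 23 and the only one in the flank beyond Hoxb1. In all, 9 flanking regions and 2 cluster regions were called in all 8 libraries, which is 0.928 and 0.412 per 100 kb. Coverage in the flanks ranged from 0% to 3.07%, the highest below the Hoxd cluster. It was 0% in every library below the Hoxc cluster, and in the untreated libraries beyond Hoxb1. These are descriptions of 4 loci, with no test.

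Only Hoxb3 and Hoxb4 had a region called in every library. Both factors belong to the anterior part of the cluster, and Hoxb4 is known for expanding blood stem cells when overexpressed. The Hoxb4 region (chromosome 11, 96318549 to 96318955) lay inside the Hoxb4 gene body, 282 bases downstream of the listed start, and also inside the longer annotated body of Hoxb3. Its called width was 353 and 363 bases in WT untreated, 384 and 351 in WT LPS, 364 and 343 in KO untreated, and 361 and 355 in KO LPS. These 8 widths were nearly equal, at 359.25 ± 12.2 bases (SD, n = 8), and all groups overlapped.

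The Hoxb3 region (chromosome 11, 96311272 to 96311973) lay inside the Hoxb3 body, 6.29 kb upstream of the Hoxb4 start. Its called width was 538 and 534 bases in WT untreated, 443 and 533 in WT LPS, 559 and 492 in KO untreated, and 375 and 360 in KO LPS. The 2 KO LPS libraries were the lowest of the 8, below all others. Both WT LPS widths were also below both WT untreated widths, by as little as 1 base, and KO untreated overlapped both WT groups. Over all libraries the mean was 479.25 ± 77.7 bases (SD, n = 8), against a median of 552.25 for the mean widths of all 36009 regions called in 8 libraries.

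**Figure D2:**
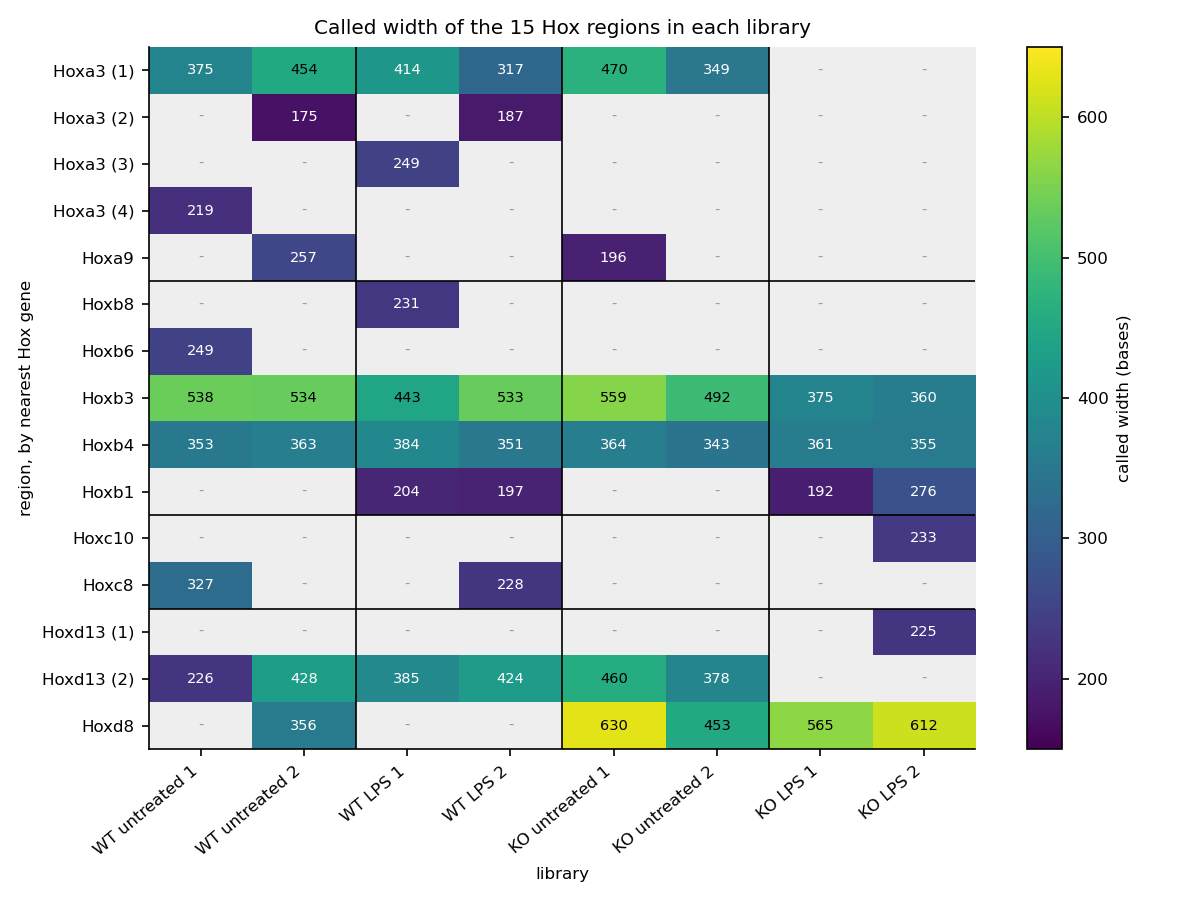
Called width in bases of each of the 15 Hox regions (rows, in order along the chromosome within a cluster) in each library (columns, named by genotype, treatment and replicate); a dash on grey marks a region not called. Hoxb3 and Hoxb4 fill all columns, the Hoxa3 (1) and Hoxd13 (2) rows are empty in both KO LPS libraries, and the Hoxb1 row is filled in the 4 LPS libraries alone.

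Hoxa had 5 regions, 4 nearest to Hoxa3, a gene of pharyngeal and thymus development, and 1 nearest to Hoxa9. The first Hoxa3 region (chromosome 6, 52191902 to 52192399) lay inside the long annotated body of Hoxa3, where the non-coding gene LOC115490409 is also annotated. It also lay 0.199 kb beyond the higher end of the Hoxa4 body (52191703). Every listed Hoxa start is on the minus strand, where a gene starts at its higher end. Hoxa4 itself has no listed start, so a peak there could not be scored. The region was 375 and 454 bases wide in WT untreated, 414 and 317 in WT LPS, and 470 and 349 in KO untreated. It was called in neither KO LPS library. The widths of the 3 groups that called it overlapped. The other 3 Hoxa3 regions were narrow and irregular: 52211635 to 52211821 was called in WT untreated library 2 (175 bases) and WT LPS library 2 (187 bases). The region at 52212818 to 52213066, which ends 1 base downstream of the Hoxa3 start, was called in WT LPS library 1 (249 bases). The last, 52213192 to 52213410, was called in WT untreated library 1 (219 bases) and is the one marked in the printed sequence. All 3 overlap the annotated antisense gene Hoxaas3, and ATAC-seq has no strand, so the partners cannot be told apart.

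Genes of the Hoxa cluster best known in blood were almost without calls. Near Hoxa9, a self-renewal factor of progenitors and leukaemias, the only region (52221595 to 52221892) lay 1.21 kb outside the gene, and it was called in WT untreated library 2 (257 bases) and KO untreated library 1 (196 bases). Hoxa7 and Hoxa10 had no region, and their start windows had no peak in any library. In the KO LPS group no Hoxa region was called in either library.

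Hoxd had 3 regions. Hoxd13, which patterns the digits, had a region at 74672765 to 74673224 of chromosome 2, in the space between Hoxd13 (1.16 kb away) and Hoxd12 (1.79 kb). It was 226 and 428 bases wide in WT untreated, 385 and 424 in WT LPS, and 460 and 378 in KO untreated, and it was not called with LPS in KO. Like the first Hoxa3 region, it was therefore missing from both KO LPS libraries and from no other. A second region next to Hoxd13 (74671816 to 74672040) was called in KO LPS library 2 alone, at 225 bases. The Hoxd8 region (74705225 to 74705880) lay inside the gene, 0.61 kb downstream of its start, and overlaps the non-coding gene Gm38462. It was 630 and 453 bases wide in KO untreated and 565 and 612 in KO LPS. In WT it was called once, in untreated library 2, at 356 bases. All 4 KO libraries were above that value.

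The remaining Hoxb and Hoxc regions were narrow. The region assigned to Hoxb1, a hindbrain gene, lay well outside the cluster (chromosome 11, 96400816 to 96401091), 32.6 kb from the gene body. Its widths were 204 and 197 bases in WT LPS and 192 and 276 in KO LPS, and none of the untreated libraries called it. Hoxb8, whose forced expression blocks myeloid maturation, had a region 0.248 kb outside the gene (96278923 to 96279153) in WT LPS library 1 alone, at 231 bases. Hoxb6 had a region inside the gene (96294671 to 96294919) in WT untreated library 1 alone, at 249 bases, where the antisense gene Hoxb5os is also annotated. In Hoxc, the region near Hoxc8 (chromosome 15, 102987340 to 102987666) was called in WT untreated library 1 (327 bases) and WT LPS library 2 (228 bases). The region near Hoxc10 (102963821 to 102964053) was called in KO LPS library 2, at 233 bases. No Hoxc region was called in both libraries of any group.

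Hox regions recurred less than regions at large. Of the 15, 2 (13.3%) were called in all 8 libraries, where 41.3% of all regions were. A single library called 6 (40%), against 20.1% of all regions. The 6 were 219 to 249 bases wide, with a median of 232 bases, close to the median of 216 bases for all 17564 regions called once. Between these ends, 3 regions were called in 2 libraries, 1 in 4, 1 in 5 and 2 in 6.

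**Figure D3:**
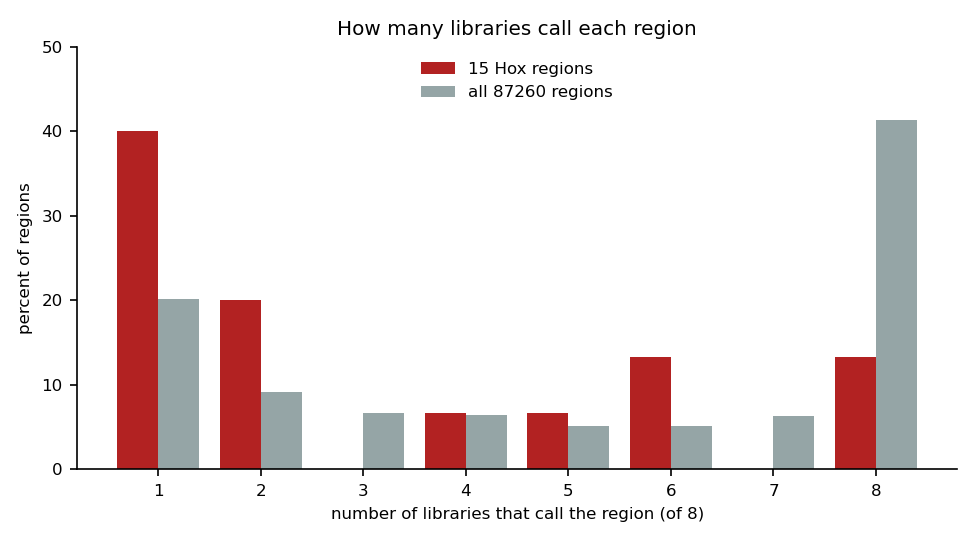
Percent of regions (y axis) called in 1 to 8 libraries (x axis), for the 15 Hox regions and all 87260 regions. The Hox bar is higher at 1 library (40% against 20.1%) and lower at 8 libraries (13.3% against 41.3%).

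Counted by paralogue, with no allowance for gene length, calls lay mostly in the anterior genes. The 11 genes numbered 1 to 4 had 7 regions and 30 calls (a call is 1 region in 1 library), the 15 genes numbered 5 to 9 had 5 regions and 11 calls, and the 12 genes numbered 10 to 13 had 3 regions and 8 calls. Paralogue 3 led with 5 regions and 18 calls, followed by paralogues 4 and 8 with 8 calls each and 13 with 7. Among genes 1 to 4, the Hoxb3 and Hoxb4 regions made 8 calls each, and the Hoxb1 region outside the cluster made 4. The first Hoxa3 region, 0.199 kb from the Hoxa4 body, counts for paralogue 3 with 6 calls. Hoxa3, Hoxb3 and Hoxd3, the last without a region, have the longest bodies of the 38 genes (44009, 40830 and 36279 bases). The part of body length in these counts was not tested. Paralogues 2, 5, 7, 11 and 12 had no call. The 4 groups made 14 calls (WT untreated), 14 (WT LPS), 11 (KO untreated) and 10 (KO LPS). A library called 7 Hox regions in each of the 4 WT libraries, 6 and 5 in KO untreated, and 4 and 6 in KO LPS, so every WT library was above every KO library. WT lists were also longer within each treatment on average: 60117 and 59218 peaks against 56346 and 59811 untreated, and 57691 and 55506 against 54911 and 54027 with LPS. Regions of 10 blood progenitor markers followed the same order in part, with 48 to 54 called in WT libraries and 38 to 49 in KO libraries. Those of 13 fibroblast or stroma markers did too, with 26 to 32 in WT and 21 to 26 in KO. Regions of 10 macrophage markers did not, with 52 to 58 in WT and 56 to 58 in KO. Those of 9 Hox cofactors ranged from 29 to 34 in WT and from 25 to 35 in KO. For 50 other developmental homeobox and T-box genes, untreated libraries called 64 and 69 regions in WT and 55 and 58 in KO. With LPS they called 50 and 52 in WT and 51 and 53 in KO, so the order was seen untreated only. Meis1, with 17 of the 80 progenitor regions, is in both the progenitor and the cofactor list. The part of list length, progenitors and stroma in the Hox counts was not tested.

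The listed transcription starts of the Hox genes were almost without peaks. The other 16 genes have no listed start and were not scored. Hoxa4 is among them, and a region called in 6 libraries lay 0.199 kb from its body. Of the 22 Hox genes with a start window, 1 (Hoxa3) had a peak there in any library and none in all 8. Among all 17492 protein-coding genes with a window, 46.3% had a peak there in all 8 libraries and 45.5% in none. In single libraries the share was 48.9% to 51.8% over all genes, and 0 or 1 of the 22 Hox genes. The Hox windows were not poor in CG. Their median G and C content was 57.7%, against 56.3%, and their median CpG ratio (observed over expected) was 0.626, against 0.567. Among genes with a window of at least 55% G and C and a ratio of at least 0.6, 74.3% of 7713 were called in all 8 libraries, and none of the 9 Hox genes of that kind were.

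**Figure D4:**
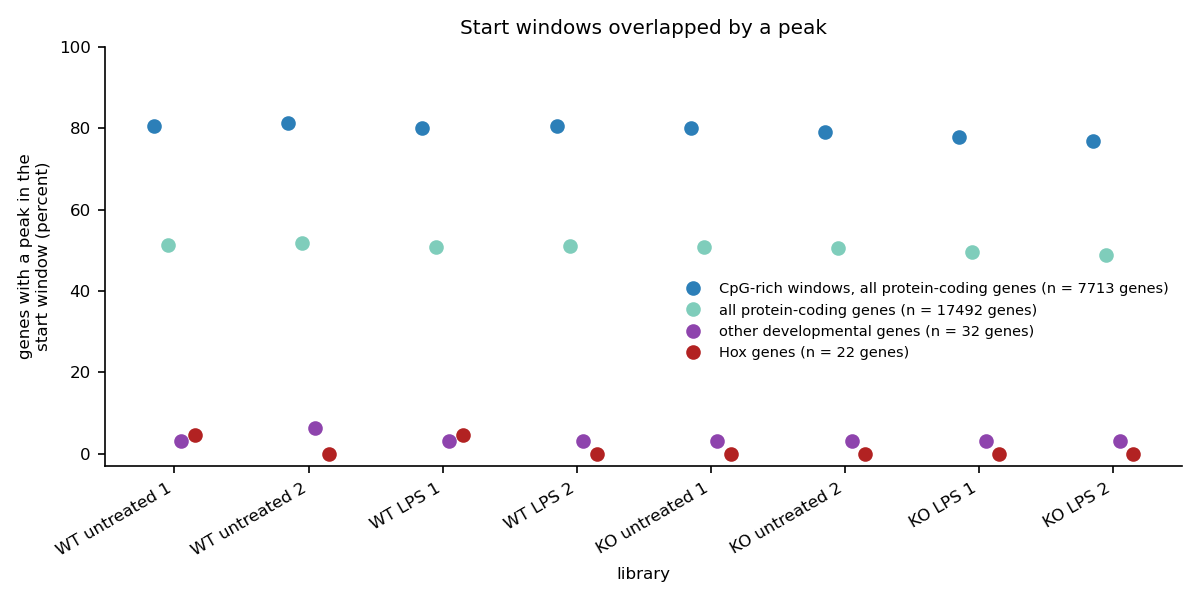
Percent of genes with a peak over the start window (y axis) in each library (x axis), for Hox genes, other developmental genes, all protein-coding genes and genes with CpG-rich windows. The 22 Hox genes with a listed start sit at 0% or 4.55% in every library, beside the other developmental genes at 3.12% to 6.25%. Both are far below all genes with a listed start, at 48.9% to 51.8%.

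Gene bodies of the Hox genes also held few regions. A region overlapped the body of 5 of the 38 genes (13.2%: Hoxa3, Hoxb3, Hoxb4, Hoxb6 and Hoxd8), against 69.8% of the 14013 protein-coding genes whose length lies within the range of the Hox genes. Since Hoxa3 and Hoxb3 have bodies over 40 kb, the count was repeated for genes up to 15 kb. It was 3 of 34 Hox genes (8.82%) and 60.9% of 7736 protein-coding genes. Both comparison sets include the Hox genes and match them by range of length only. The median length was 3721.5 bases for Hox genes against 13121, and 3400.5 against 6834 for genes up to 15 kb. Longer bodies have more room for a region, so the shares are not matched for length. Other developmental homeobox and T-box genes, 50 in number, stood between: 18 (36%) had a region over the body, 38 had an assigned region, and 21% of their 105 regions were called in all 8 libraries. Of 32 such genes with a start window, 30 had no peak there in any library.

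Short motifs in the start windows were compared on both strands. CCAAT, a general promoter element, was in the windows of 15 of 22 Hox genes (68.2%) and of 42.3% of all genes. GGGCGG, which Sp factors bind, was in 10 (45.5%) and 49.2%, and GGAAGT, an ETS element, in 2 (9.09%) and 27.7%. TGGAAA, the core of NFAT sites, was in 6 (27.3%: Hoxa10, Hoxa11, Hoxc4, Hoxd11, Hoxd12 and Hoxd8) and 22%, and TGATTNAT, read by PBX with HOX, in 2 (9.09%, Hoxa2 and Hoxd11) and 3.25%. None of these genes had a peak over its window, and no p-value was computed for the counts.

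The clusters also encode microRNAs, shown with their seed (bases 2 to 8) in capitals because 2 families share it across clusters. None of the listed hairpins overlapped a called region.
miR-10a-5p: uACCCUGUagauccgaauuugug
miR-10b-5p: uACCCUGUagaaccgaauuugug
miR-196a-5p: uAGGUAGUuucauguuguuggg
miR-196b-5p: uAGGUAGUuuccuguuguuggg
Mir10a, upstream of Hoxb4, lay 1.27 kb from the Hoxb4 region that all 8 libraries called. Its paralogue Mir10b in Hoxd lay 20.2 kb from the Hoxd8 region. The miR-196 genes lay 8.19 kb (Mir196b), 13.7 kb (Mir196a-1) and 9.30 kb (Mir196a-2) from regions called in only 1 or 2 libraries.

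Few Hox calls differed with LPS. In WT, 1 of 15 regions (Hoxb1) was gained, meaning called in both LPS libraries and neither untreated one, where 3.96% of all regions were gained, and none was lost (5.06% of all). In KO, the same Hoxb1 region was gained (2.56% of all regions) and 2 were lost, the first Hoxa3 region and the second Hoxd13 region (4.07% of all). The pattern of the Hoxb1 region, present in each LPS library and absent from each untreated one, was shown by 1.1% of all regions. With 15 regions a single one is 6.67%, so counts of 1 stand near the background.

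By genotype, 3 Hox regions differed in calls with LPS. Untreated, no Hox region was called in both libraries of 1 genotype and neither of the other (2.23% of all regions for WT, 1.6% for KO). With LPS, 2 regions were called only in WT (3.17% of all regions), and these were the Hoxa3 and Hoxd13 regions lost in KO. Both statements rest on the same 2 KO LPS libraries. The Hoxd8 region was called only in KO with LPS (2.03% of all regions). The pattern of the Hoxa3 and Hoxd13 regions, called everywhere except in KO LPS, was shown by 0.519% of all regions, and by 453 (10.1%) of the 4465 regions called in exactly 6 libraries. The KO LPS lists were the shortest and covered 27.1 and 26.2 Mb, against 27.7 to 31.2 Mb in the others. When every list was held to its widest 54027 peaks, both regions were still called in the other 6 libraries and in neither KO LPS library. With the widest 27013 peaks of each list, each of the 2 regions was called in 1 of 8 libraries, so the pattern was gone, and with 50% of a region to be covered the Hoxd13 region was called in 5. A comparison of 2 libraries with 2 has a smallest exact permutation p of 0.333, so these counts carry no p-value.

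Widths could be tested where all libraries called a region. Neither Hoxb3 nor Hoxb4 passed (limma on log2 called width, fitted on 36009 regions, Benjamini-Hochberg adjustment over all of them, threshold 0.05). The share of all regions that passed was 0.233% for LPS in WT, 0% for LPS in KO, 0% for KO against WT untreated and 0.0111% for KO against WT with LPS. It was 0.00278% for the interaction, 1.92% for LPS over both genotypes and 0.00833% for KO against WT over both treatments. The Hoxb3 region differed with LPS by -0.51 ± 0.13 (log2, SE) in KO (limma, adjusted p = 0.210) and by -0.14 ± 0.13 in WT (adjusted p = 0.673). The WT value rested on single libraries, at -0.0081 without WT LPS library 1 and -0.27 without WT LPS library 2, and centring gave -0.024. The difference between these responses was -0.37 ± 0.19 (limma, adjusted p = 0.823), or -0.51 without WT LPS library 1 and -0.24 without WT LPS library 2. Between genotypes with LPS the Hoxb3 difference, KO minus WT, was -0.40 ± 0.13 (limma, adjusted p = 0.367). Over both genotypes LPS gave -0.33 ± 0.093 for Hoxb3 (limma, adjusted p = 0.128) and 0.03 ± 0.072 for Hoxb4 (adjusted p = 0.856). The median of all tested regions was -0.11 with LPS, so Hoxb3 was -0.20 and Hoxb4 0.15 after centring each library on its median. Of these 2 regions, 1 (Hoxb3) had an unadjusted p under 0.05 for LPS in KO, for KO against WT with LPS and for LPS over both genotypes, as had 4831, 3752 and 7692 of all 36009 regions. After centring, neither had one for LPS over both genotypes.

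Partners of the Hox proteins and their regulators had many more called regions per gene than the Hox genes. The 9 cofactor genes had 52 regions, 14 of them called in all 8 libraries. Meis1, the main blood cofactor, had 17 regions, 4 of them in all libraries, and a peak over its start window in every library. Meis3 and Pbx2 had none. The 11 genes of the activating side had 74 regions, and the start windows of Kmt2a, Men1 (menin), Dot1l (an H3 methyltransferase), Mllt1, Mllt3, Aff1 and Aff4 were called in all 8 libraries. Cdx1 had no region and Cdx2 and Cdx4, which activate Hox genes in the embryo, had 3 and 2. The 17 genes of the Polycomb-side list had 86 regions, among them 16 at Eed and 7 at Ezh2, the subunit that methylates H3. This list also holds Kdm6a and Kdm6b, which remove that methylation, with 8 and 5 regions. The start windows of 9 of its 14 genes with one were called in all 8 libraries, Kdm6a among them.

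Of the partner regions tested for width, 3 passed with LPS over both genotypes: 2 of 35 of the activating side and 1 of 35 of the Polycomb side, where 1.92% of all regions passed. These counts are too small to be set apart from that share. A region at Aff1 (chromosome 5, 103721162 to 103722006) was wider, at 326, 340, 339 and 397 bases untreated and 788, 678, 570 and 603 with LPS (0.91 ± 0.093 on the log2 scale; limma, adjusted p = 0.0244). All LPS values were above all untreated ones. A region at Mllt1 (chromosome 17, 56938849 to 56939336) was narrower (-0.97 ± 0.13; limma, adjusted p = 0.0336), as was one at Eed, a Polycomb subunit (chromosome 7, 90041603 to 90042756, -0.58 ± 0.074; limma, adjusted p = 0.0320). None of these 3 calls held when any 1 of the 8 libraries was left out (limma, adjusted p = 0.0542 to 0.1), although every direction stayed, and centring ended those at Mllt1 (adjusted p = 0.0517) and Eed (adjusted p = 0.0606). None of the 14 tested cofactor regions and neither of the 2 at Ctcf and Rad21 passed. By calls, the 52 cofactor regions had 1 gained and 7 lost in WT, and 2 gained and 4 lost in KO. The 74 of the activating side had 3 and 1 in WT, and 2 and 3 in KO. The 86 of the Polycomb side had 1 and 3 in WT, and 1 and 7 in KO. The background shares are 3.96% gained and 5.06% lost for WT, and 2.56% and 4.07% for KO.

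The labelled cell type was checked on marker genes. All 10 macrophage genes, among them Csf1r, Spi1, Cd68 and Lyz2, had a region called in all 8 libraries, against 59.7% of protein-coding genes. Per library, 52 to 58 of the 93 regions of these 10 genes were called. Of the 6 with a listed start, 4 had it called in all 8 libraries, Mertk in 7 and Itgam in none. Of the 13 fibroblast or stroma genes, 7 had such a region, but 6 of the 7 with a listed start had no peak over it in any library, Col1a2 and Col3a1 included. The exception was Postn, called there in all 8. The libraries called 21 to 32 of the 51 regions of this list. Of the 10 progenitor genes 6 had such a region, and only Meis1 had its start window called in all 8 libraries. Kit and Mpo were the 2 of the 10 with no peak over theirs, while Hlf had one in 6 libraries and Cd34 and Flt3 in 5 each. The counts of 7 of 13 stroma genes and 6 of 10 progenitor genes stood near the 59.7% of all genes.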

How the data were processed

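Peak positions were deposited as 1 list per library, on build GRCm38 (mm10) per the submitters' processing notes, which name MACS2 2.1.1, Bowtie2 2.3.0, Picard and bcl2fastq 2.17.1.14. The sources used here give no roles, settings or calling threshold, and the lists hold no score or depth. Weak peaks near the threshold can therefore enter 1 list and not the next.

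Lists were merged over 21 chromosomes. Each region went to the closest gene body among 21887 coding genes of the GRCm38.p6 table; where several bodies overlapped, the one sharing most bases and then the shortest was used. Positions count from 1. Other genes of the clusters were not analysed here. Widths were tested with limma 3.58.1 in R 4.3.3 (4 group means, log2 scale, no pseudocount), checked on simulated data; tables used Python 3.11.15. Starts and microRNAs came from RefSeq. All 15 regions are named, which goes beyond the rule of the widest and the changed regions. The 38 genes, the lists and the tests were chosen with earlier results of these data known. Alternatives covered overlap, distance, merging, list length, left-out libraries, replicate block, centring and the variance prior.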

Additional observations from a re-analysis of the deposited data

How the results depend on the processing

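The number of Hox regions, the 2 called in all 8 libraries and the gained, lost and genotype-only counts were the same when 50% of a region had to be covered, when peaks within 100 bases were merged and when lists were held to equal length. Within 25 kb of a gene the Hoxb1 region drops out, so 14 regions remained and 0 were gained with LPS in WT and 0 in KO. With the widest 27013 peaks of each list, 4 Hox regions remained, 0 were called in all 8 libraries, 0 were gained in WT or in KO, 1 was lost in KO and 1 was called only in WT with LPS, both times the Hoxb3 region and not those at Hoxa3 and Hoxd13; no Hox width could then be tested. Leaving out 1 library at a time gave 13 to 15 regions. The other ranges were 1 to 3 gained and 0 to 2 lost in WT, 1 to 3 gained and 2 to 3 lost in KO, 0 to 3 only in WT and 0 to 1 only in KO untreated, and 2 to 4 only in WT and 1 to 3 only in KO with LPS. An arm of a single library calls more regions by construction. The count without a library rose by over 1.5 times for WT untreated 1 and 2 (lost in WT, 2 each), WT LPS 2 (gained in WT, 3) and KO LPS 1 (gained in KO, 3). It also did for WT untreated 1 and 2 (only in WT untreated, 1 and 3; for the second also only in KO, 1), WT LPS 1 and 2 (only in WT with LPS, 4 each) and KO LPS 1 (only in KO with LPS, 3).

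No alternative made a Hox width pass; the limma adjusted p of the Hoxb3 region ranged from 0.194 to 0.467 for LPS in KO, from 0.303 to 0.618 for KO against WT with LPS and from 0.114 to 0.323 for LPS over both genotypes. Left-out libraries moved the Hoxb3 change from -0.61 to -0.42 for LPS in KO, from -0.54 to -0.27 for KO against WT with LPS and from -0.39 to -0.26 for LPS over both genotypes. Centring moved the count over all regions for LPS over both genotypes from 691 (177 wider, 514 narrower) to 392 (231 wider, 161 narrower). The Hoxb4 change with LPS ranged from -0.0048 to 0.060 without 1 library, and the lowest, without WT LPS 1, had the other sign. The labels share codes between libraries but not a stated mouse, and deviations of same-coded libraries hardly correlated (r = 0.0537 in WT and 0.0544 in KO, and 0.0415 and 0.017 for the same number across genotypes). With the replicate block the count of Hox widths that passed stayed at 0, and the count over all regions for LPS over both genotypes went from 691 to 0, those at Aff1, Mllt1 and Eed included (adjusted p = 0.116 to 0.118). Depth is unknown, so the weakest regions cannot be given a detection limit.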

Other observations

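Some other developmental genes held several regions that recurred in every library. All 3 regions assigned to Alx4, a limb and skull gene, were called in all 8 libraries, as were 4 of 7 at Dlx2. Lhx2 was the 1 gene of that list whose start window was called in all 8 libraries. The homeobox genes that end the Hoxa and Hoxd clusters, Evx1 and Evx2, had 4 and 3 regions, of which 1 at Evx1 and 0 at Evx2 were called in all 8 libraries, and no library had a peak over either start window. Pax2, Mnx1, Pdx1, Msx1 and Msx2 had no region within 100 kb assigned to them. These genes were picked out after their values were seen, and no test was made.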
